A study of Mus musculus with 19 samples.

Results

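Gm35021 (ENSMUSG00000109714) is a processed transcript on mouse chromosome 8, that is, an RNA for which the annotation gives no open reading frame. It is 1 gene of the 48709 counted in this series, and it was chosen by its level in these same libraries, where it was lower in the APP anti-miR-mix group than in APP control and lay at separate high and low levels among animals of 1 group. Its own levels and differences between groups are therefore given as a description, with no test. RNA from the microdissected CA1 region of the hippocampus was sequenced from mice aged 7 months as single reads of 50 nt. WT control (n = 6) were wild-type littermates. The groups APP anti-miR-mix (n = 7) and APP control (n = 6) were APPPS1-21 mice, which carry mutant human transgenes, including one for APP, under Thy1 regulatory sequence, so that they are expressed mainly in neurons, and which deposit amyloid. All animals received lipid nanoparticles injected into the dorsal hippocampus. In APP anti-miR-mix they held oligonucleotides against 3 microRNAs, namely miR-181a-5p, miR-148a-3p and also miR-146a-5p, and in both control groups a control oligonucleotide. In the labels, WT control titles hold the name of the mixture next to that of the control, and the study's description of these animals as controls was used here.

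Processed transcripts and other long noncoding RNAs are made by RNA polymerase and often spliced like messenger RNA, but they are not translated into a known protein. Many are present at low levels, vary more between individuals than messenger RNAs do, and have no known function. Some share a promoter region with a protein-coding gene or influence genes beside them on the chromosome, so the levels of the neighbouring genes are the usual first comparison. MicroRNAs act on other RNAs by pairing of their seed, bases 2 to 8 from the 5′ end, with a matching stretch of the target.

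Gm35021 lies on the plus strand at chr8:35724175-35757517 (GRCm38, mm10, GENCODE release M21). It has 4 annotated transcripts of 788, 592, 961 and 2329 nt, and their exons cover 3741 bases. No exon of another gene overlaps these exons. The gene Gm22216, annotated as an rRNA, lies inside Gm35021 and had 4 counts in all libraries together. Of the annotated exons only 1 stretch of 74 bases, chr8:35725444-35725517 on the plus strand, is contained in all 4 transcripts. It is shown as the sequence that any of the transcripts contributing to the counts would hold, 5′ to 3′.
Gm35021 shared segment: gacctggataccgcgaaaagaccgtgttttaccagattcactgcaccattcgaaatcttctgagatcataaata

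The mature sequences of the microRNAs that the mixture inhibits are given, from RefSeq, with the seed in capitals.
miR-181a-5p: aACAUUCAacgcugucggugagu
miR-146a-5p: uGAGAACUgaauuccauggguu
miR-148a-3p: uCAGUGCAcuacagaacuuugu
The stretches that pair with these seeds, TGAATGT for the first, AGTTCTC for the second and TGCACTG for the third, were searched on the sense strand of the 4 Gm35021 transcripts, and 0 matches were found. Among annotated transcripts of similar length to each, between 4.76% and 20.9% hold a given one of these stretches. The absence of a match says only that these letters are not in these 4 transcripts. The RefSeq model of the gene, with 10 transcripts over a longer span, was not searched.

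The libraries held between 19362343 and 37018917 counts each. No 2 libraries of a group agreed within sampling noise (the closest pair had a chi-square of 4.46 per gene), and each was counted as a separate sample. The labels do not say that each library came from a separate animal, so the spread between libraries may be partly technical. The genotype labels were checked by the genes whose sequence the transgenes share. Thy1 had a normalized read count of 18117 to 20734 in WT control, against 43203 to 54141 in APP anti-miR-mix and 36153 to 62866 in APP control. App had 49038 to 54801 in WT control, against 65315 to 74962 in APP anti-miR-mix and 67218 to 80752 in APP control. For both genes each APP library was above each WT library. The 8 markers of CA1 pyramidal neurons were detected in all groups, with a mean log2(normalized count + 1) between 11.50 and 12.09 in the 19 libraries.

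In WT control, Gm35021 was at 2 separate levels. Its normalized read count (the count divided by the library's DESeq2 size factor) was 116 and 122 in replicates 1 and 2, and 23.5, 7.73, 17.6 and 28.6 in replicates 3, 4, 5 and 6. The raw counts behind these values were 118, 81, 21, 9, 19 and 25. The exact Poisson 95% intervals of the counts, which cover counting error only, reached from 95.8 to 139 normalized counts in replicate 1 and from 18.5 to 42.2 in replicate 6, the highest of the other 4. The group mean of 52.6 ± 52.0 (SD, n = 6) fell where no library lay, and the median was 26.0.

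In APP control, 5 of the 6 libraries were high and 1 was low. The normalized read count was 135 in replicate 1, 25.0 in replicate 2, 111 in replicate 3, 125 in replicate 4, 106 in replicate 5 and 82.4 in replicate 6 (97.4 ± 39.8, SD, n = 6, with a median of 108). Replicate 2, with a raw count of 22, lay among the values of WT control replicates 3 to 6, and the other 5, at 82.4 to 135, spanned a range that held WT control replicates 1 and 2.

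In APP anti-miR-mix, each of the 7 libraries was low. The normalized read count was 18.8, 10.5, 19.7, 14.95, 16.5, 26.3 and 18.3 in replicates 1 to 7, with raw counts between 10 and 27 (17.9 ± 4.85, SD, n = 7, with a median of 18.3). Its highest library, at 26.3, was above the lowest library of APP control, at 25.0, so the groups overlapped by that 1 library. It overlapped WT control fully in its lower part, since WT control replicates 3 to 6 spanned 7.73 to 28.6.

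**Figure D1:**
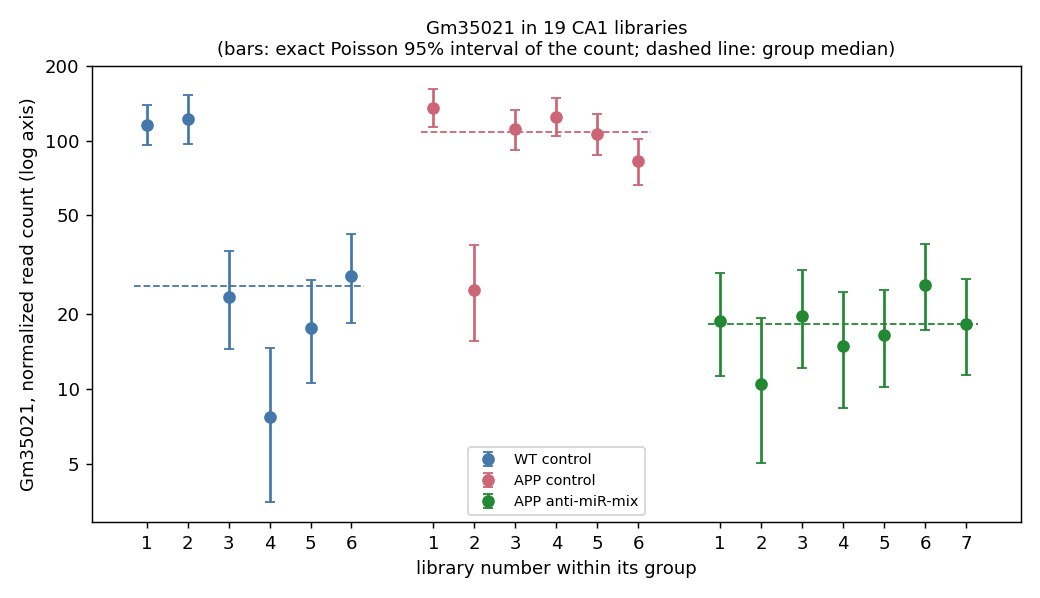
Normalized read count of Gm35021 (vertical log axis) in each library, numbered within its group on the horizontal axis, with the exact Poisson 95% interval of the count as bars and the group median as a dashed line. All 7 APP anti-miR-mix libraries lie at 26.3 or below, 5 of 6 APP control libraries at 82.4 or above, and WT control is divided, with 2 libraries above 115 and 4 below 29.

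Over the 19 libraries, 7 lay between 82.4 and 135 and 12 between 7.73 and 28.6, with none between 28.6 and 82.4. The empty interval spanned a ratio of 2.89, or 1.497 on the scale of log2(normalized count + 1). It was wider than the spread among the 7 high libraries, whose highest and lowest differed by a ratio of 1.64. The 12 low libraries differed by a ratio of up to 3.70, at counts where the Poisson intervals are wide.

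The fitted differences between groups, in DESeq2 with all libraries in 1 fit, were a log2 difference of 0.90 ± 0.55 (SE) for APP control minus WT control, a ratio of 1.86, of -2.45 ± 0.54 for APP anti-miR-mix minus APP control, a ratio of 5.45 in the lower direction, and of -1.55 ± 0.54 for APP anti-miR-mix minus WT control, a ratio of 2.93 in the lower direction. They share groups and are not independent of each other. The difference from APP control was thus a comparison of 7 low libraries with a group of 5 high and 1 low, and the difference from WT control a comparison with 2 high and 4 low.

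The spread within groups is given as a description, since the gene was selected on these levels. Its dispersion, the variance beyond counting that DESeq2 estimates within groups, was 0.416, and the trend across genes at its level was 0.0416. Of the 4666 genes with a mean normalized count between 20 and 200, 45 had a dispersion at least as large, Gm35021 included.

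Few genes in the table were at 2 such distinct levels. This too is a description, since Gm35021 was chosen for its levels and its place among the genes is no test. For each of the 19297 genes that passed the filter on low counts, the libraries were ordered by level and the largest gap with at least 5 libraries on each side was taken. The median of this gap over all genes was 0.08 on the log2 scale, and 3 genes had a gap as large as that of Gm35021. Of the other two, Gm12663 on chromosome 11 had a gap of 1.70, with 3 APP anti-miR-mix, 3 APP control and 1 WT control library above it, and Fgfbp1, which encodes a binding protein for fibroblast growth factors, on chromosome 5 had a gap of 1.58 with 7, 3 and 2 above it. Both were named after their values were seen. Of the 7 libraries in which Gm35021 was high, 3 were among the 7 high for Gm12663 and 3 among the 12 high for Fgfbp1, so each gene divided the libraries in its own way.

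**Figure D2:**
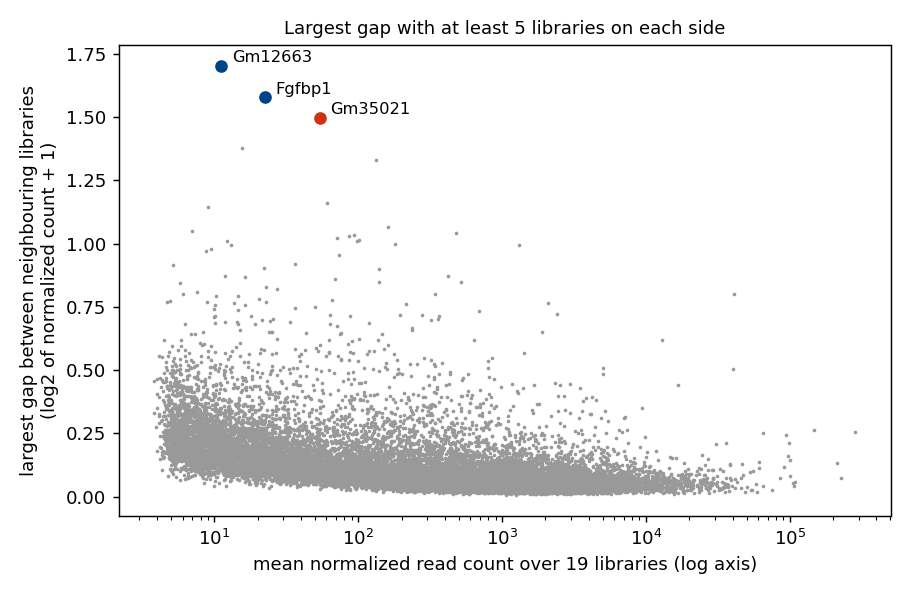
For each gene that passed the filter, the largest gap between libraries of neighbouring rank with at least 5 libraries on each side (vertical axis, log2 of normalized count + 1) is plotted against the mean normalized read count (horizontal log axis). Gm35021, at 1.497, stands with Gm12663 and Fgfbp1 above all other genes, at a higher mean count (53.9) than either. It was chosen for its levels in these libraries.

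Measures of the library as a whole were set beside the level. The raw total of the libraries had a correlation of -0.36 with log2(normalized count + 1) of Gm35021 over the 19 libraries, and the share of mitochondrial counts one of -0.04, given as descriptions. Total counts started at 19362343 in the shallowest WT control library and ended at 37018917 in the deepest one of APP anti-miR-mix, with APP control at 24966818 to 31830517. The mitochondrial share spanned 2.97% to 4.58% for WT control, 2.86% to 4.58% for APP control and 2.84% to 4.87% for APP anti-miR-mix. In the authors' table of normalized log2 values, which carries an adjustment by a whole number from 1 to 5 per library, the same 7 libraries were the highest, at 2.38 to 2.74 against at most 1.51 in the other 12, so the division was present with and without that adjustment. All libraries came from males as far as sex-linked genes show, with Xist between 5.95 and 19.1 normalized counts and Ddx3y, a Y-linked helicase, at 749 or above. A role of any of these measures in the level of Gm35021 was not tested.

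Markers of cell types and of regions next to CA1 were compared in the same way, as the mean log2(normalized count + 1) of each list. In bulk tissue, fewer cells of a type and less RNA per cell cannot be told apart. Over the 19 libraries the correlation of the list means with Gm35021 lay between -0.36, for 6 striatal markers, and 0.26, for 5 blood markers. Of deviations from the group means, the correlation was 0.53 for 8 markers of inhibitory neurons and -0.49 for the 8 CA1 markers, with the remaining lists between these. The inhibitory marker mean spanned 11.44 to 11.65 for WT control, 11.29 to 11.42 for APP control and 11.26 to 11.45 for APP anti-miR-mix. The CA1 marker mean spanned 11.68 to 12.09, 11.56 to 11.95 and 11.50 to 11.79. Striatal markers spanned 7.98 to 8.62, 7.85 to 8.69 and 8.04 to 8.84. The part of these lists in the level of Gm35021 was not tested.

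The next question was whether the genes beside Gm35021 shared its levels. Within 1 Mb on either side the annotation places 39 other genes, of which 14 passed the filter (5 counts or more in 50% or more of the libraries). The other 25, mostly lincRNAs and pseudogenes, had at most 11 counts in any library. Among them was 1700015I17Rik, a lincRNA that ends 4226 bases before Gm35021, with at most 5 counts. Per kilobase of exon, the median level of Gm35021 was 0.236 CPM (counts scaled to a common total), and 12 of the 14 neighbours had a higher median level per kilobase, up to 10.9 for Lonrf1.

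The genes on either side did not divide the libraries as Gm35021 did. Mfhas1, which encodes a leucine-rich repeat protein of immune signalling, ends 44726 bases before it on the same strand (chr8:35587798-35679449). It had a lowest, median and highest normalized read count of 1400, 1446 and 1601 for WT control, 1376, 1425 and 1563 for APP control and 1327, 1426 and 1635 for APP anti-miR-mix. The 3 groups overlapped over nearly their whole range. Gm19410, a predicted protein-coding gene, starts 8273 bases after Gm35021 on the same strand (chr8:35765790-35818047). It had 1354, 1773 and 2014 for WT control, 1228, 1429 and 1805 for APP control and 1378, 1731 and 2099 for APP anti-miR-mix. APP control, where Gm35021 was highest, had the lowest median, but the groups overlapped. The log2 difference of APP anti-miR-mix minus APP control was 0.23 ± 0.12 (SE) for Gm19410 and -0.01 ± 0.05 for Mfhas1 (adjusted p = 1.00 for both, DESeq2), beside the -2.45 of Gm35021.

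With APP anti-miR-mix set against APP control, 0 of the 14 neighbours passed the test (DESeq2, adjusted p under 0.05 over all genes). Among all other genes tested 0.0% passed, 551 of 19283 had an unadjusted p under 0.05, and edgeR called 0 as well. Of the 14 neighbours 0 had an unadjusted p under 0.05. Their log2 differences lay between -0.57, for the pseudogene Gm5787 at a mean of 5.95 to 8.86 normalized counts, and 0.28, for Ppp1r3b.

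Between APP control and WT control, 4 of the 14 neighbours passed the test, a share of 28.6%, where 4.71% of all other genes did; the difference between these shares was not tested. Dusp4, a phosphatase that turns off MAP kinases, was lower in APP control, with a lowest, median and highest normalized read count of 356, 429 and 481 against 499, 609 and 652 in WT control. The log2 difference was -0.51 ± 0.13 (SE, adjusted p = 0.0034, DESeq2). Trmt9b, a homologue of tRNA methyltransferases, was lower at 744, 801 and 934 against 990, 1149 and 1316, a log2 difference of -0.47 ± 0.08 (adjusted p = 5.3e-07, DESeq2). In neither gene did the 2 groups overlap.

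Lonrf1, which encodes a RING finger protein, was lower in APP control at 1131, 1206 and 1244 against 1330, 1395 and 1428, a log2 difference of -0.20 ± 0.05 (adjusted p = 0.0022, DESeq2). Ppp1r3b, which encodes the subunit that brings protein phosphatase 1 to glycogen, was higher at 53.3, 73.3 and 98.9 against 18.3, 37.8 and 51.0, a log2 difference of 1.01 ± 0.22 (adjusted p = 0.00035, DESeq2). These groups did not overlap either. The 4 called genes lie between 336036 and 904281 bases from Gm35021, beyond the genes nearest to it.

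In APP anti-miR-mix against WT control the test called 4 of the 14 neighbours, by symbol also Dusp4, Ppp1r3b, Lonrf1 and Trmt9b, where 8.95% of all other genes passed. This comparison shares the WT control libraries with the previous one. Dusp4 had 290, 412 and 580 normalized counts in APP anti-miR-mix, a log2 difference of -0.49 ± 0.12 (SE, adjusted p = 0.0020, DESeq2), and overlapped WT control. Lonrf1 had 1073, 1225 and 1344, a log2 difference of -0.20 ± 0.05 (adjusted p = 0.0013), and overlapped WT control in its highest library. Ppp1r3b had 66.1, 87.2 and 131 and Trmt9b 719, 798 and 931, and neither overlapped WT control. Their log2 differences were 1.29 ± 0.21 (adjusted p = 1.9e-07, DESeq2) and -0.49 ± 0.08 (adjusted p = 3.1e-08).

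**Figure D3:**
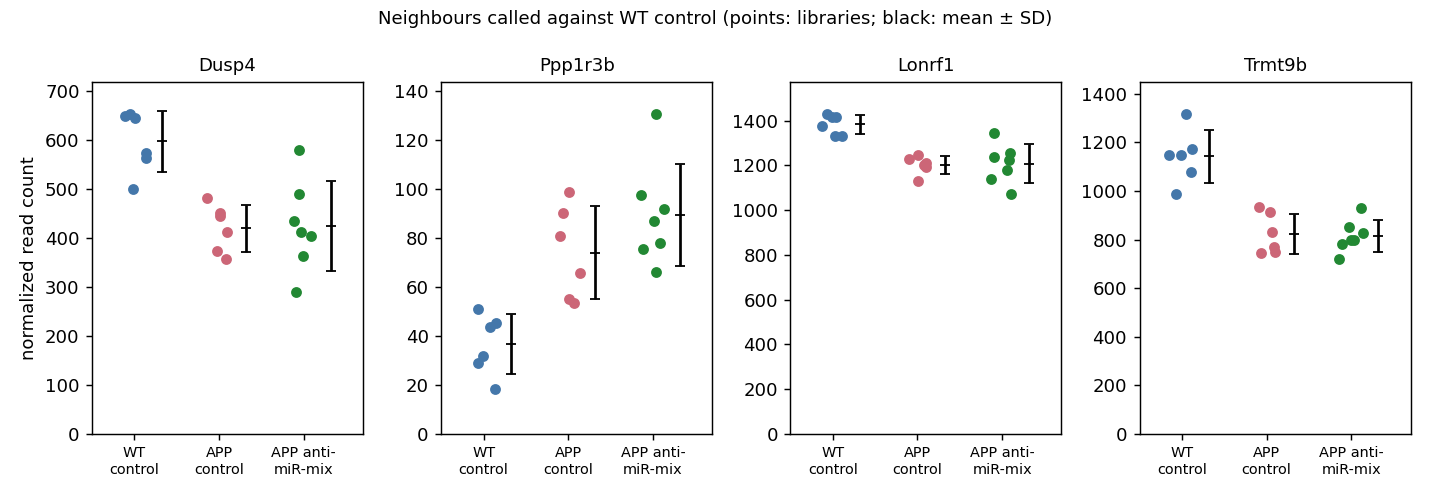
Normalized read count (vertical axis from 0) of the 4 neighbours that passed the test against WT control, with 1 point per library in each group and the mean ± SD in black. APP control and APP anti-miR-mix lie side by side in each gene, lower than WT control in Dusp4, Lonrf1 and Trmt9b and higher in Ppp1r3b, and in none does APP anti-miR-mix stand apart from APP control as it does in Gm35021.

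The called neighbours thus differed by genotype label, in both APP groups, while Gm35021 was high in 1 APP group and low in the other. Other gene lists moved with the same contrasts. Of 8 microglia markers, 6 passed the test as higher in APP control, where 3.66% of all genes did, and 7 in APP anti-miR-mix, where 5.59% did, both against WT control, with list means from 10.41 to 11.08 for WT control, 10.90 to 12.03 for APP control and 11.37 to 12.05 for APP anti-miR-mix. Of 10 genes of the glial response to amyloid 9 passed as higher in each contrast. Of 8 immediate early genes, which neuronal activity induces, 6 passed as lower in APP control, beside 1.05% of all genes, and 7 in APP anti-miR-mix, beside 3.36%, with list means from 9.75 to 10.32 for WT control, 9.15 to 9.57 for APP control and 8.85 to 9.71 for APP anti-miR-mix. The part of these lists in the levels of Dusp4, Ppp1r3b, Lonrf1 and Trmt9b was not tested.

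Over chromosome 8 as a whole, 48 of 1053 other genes passed the test between APP control and WT control (4.56%), 87 passed for APP anti-miR-mix minus WT control (8.26%), and 0 passed for APP anti-miR-mix minus APP control, where 32 had an unadjusted p under 0.05 and edgeR called 0. The shares on the chromosome were near those of all genes. The 87 fell to 57 without WT control replicate 4, and the share over all genes in that fit is not given here.

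Which genes followed Gm35021 from library to library was tested within groups, with a DESeq2 fit in which the level of Gm35021 entered beside the group. The slope of this fit is the log2 change of a gene per 1 log2 step of Gm35021. Within both control groups the level still forms clusters, so the slope rests largely on which libraries were high. The fit takes the level as free of counting error, so genes that follow Gm35021 may have been missed. Of 19296 other genes 0 passed the adjusted threshold (0.0%), with 575 at an unadjusted p under 0.05 (2.98%) and 0 called by edgeR, which had 607 at an unadjusted p under 0.05. On chromosome 8, 0 of 1054 passed and 32 had an unadjusted p under 0.05 (3.04%), a share like that over all genes. Within 1 Mb, 0 of 14 passed and 1, Prag1, had an unadjusted p under 0.05. The slopes of the 14 neighbours lay between -0.06 and 0.15.

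Prag1, which encodes a pseudokinase that scaffolds signalling at the cytoskeleton, lies 337311 bases after Gm35021 (chr8:36094828-36147787, plus strand). It had a lowest, median and highest normalized read count of 884, 1098 and 1446 for WT control, 1209, 1306 and 1676 for APP control and 1010, 1204 and 1370 for APP anti-miR-mix. Its slope was 0.12 ± 0.05 (SE), with an unadjusted p of 0.0070 and an adjusted p of 1.00 (DESeq2). In WT control, replicates 1 and 2, the ones high in Gm35021, had 1231 and 1446, but replicate 3, low in Gm35021, had 1357. In the 7 APP anti-miR-mix libraries the correlation of Prag1 with Gm35021 was -0.22, beside 0.71 in WT control and 0.56 in APP control. Of deviations from the group means it was 0.57 for Prag1 and 0.53 for Gm16793, a noncoding neighbour.

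The neighbour with the highest correlation with Gm35021 over the 19 libraries was Gm16793, an RNA annotated as sharing a promoter region with Mfhas1 and transcribed from the minus strand (chr8:35582503-35588972), 135203 bases before Gm35021. Its raw counts were low, at 12 to 26 per library. At such counts the error of counting is wide, with an exact Poisson 95% interval of 11.4 to 29.7 for a count of 19. In APP control it was at 22.4, 22.4, 21.4, 23.4 and 22.0 normalized counts in replicates 1, 3, 4, 5 and 6 and at 13.6 in replicate 2, the library in which Gm35021 was low as well. In WT control it was at 19.6 and 25.7 in replicates 1 and 2, and at 13.4, 17.2, 18.5 and 18.3 in replicates 3 to 6. In APP anti-miR-mix it ranged from 12.2 to 25.9, with a median of 16.9, and its highest value, 25.9 in replicate 4, came with a Gm35021 level of 14.95. In both control groups each library high in Gm35021 was thus above each low one in Gm16793. In WT control the closest values were 19.6 and 18.5, a difference within counting error. APP anti-miR-mix, low throughout in Gm35021, covered the values of both. Its slope was 0.15 ± 0.10 (SE, unadjusted p = 0.14, adjusted p = 1.00, DESeq2). Its annotated span overlaps the start of Mfhas1 on the other strand, and the library kit does not mark strand, so reads of the overlap cannot be assigned to 1 of the genes.

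**Figure D4:**
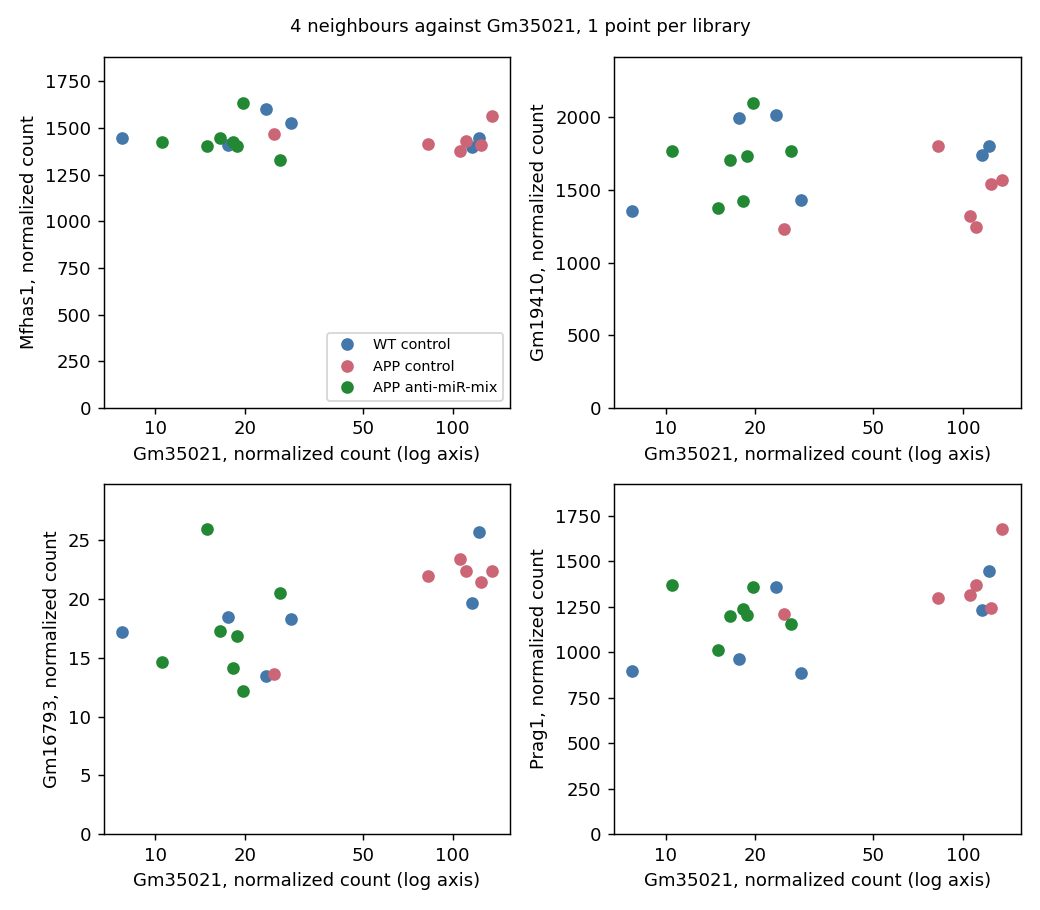
Normalized read count of 4 neighbours (vertical axes from 0) against that of Gm35021 (horizontal log axes), 1 point per library, coloured by group. Mfhas1 and Gm19410, the nearest genes that passed the filter, have like values in the low and the high libraries of Gm35021. Gm16793 is higher in each control library that is high in Gm35021 than in the low ones of its group. In WT control this margin is within counting error. Prag1 leans upward in the control groups with overlapping values.

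Likeness over all 19 libraries was described by the correlation of log2(normalized count + 1) with Gm35021. Because its levels form separate clusters, these values rest largely on which libraries were high, and no p is given. The libraries share group, dissection and depth. For the 14 neighbours Pearson's r lay between -0.14 (Dlc1, a GTPase activating protein) and 0.61 (Gm16793), with a median of 0.06, 9 positive and 5 negative. Prag1 followed at 0.56, and Spearman's rho was 0.48 for Prag1 and 0.50 for Gm16793. Mfhas1 was at -0.08 and Gm19410 at -0.11. Without APP control replicates 1 and 4, the 2 libraries farthest from the median of Gm35021, r was 0.57 for Gm16793 and 0.49 for Prag1.

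Over the 1054 other genes of chromosome 8, r lay between -0.61 and 0.61 with a median of -0.01, and 16 genes (1.52%) reached 0.5 in either direction. On the other chromosomes 185 of 18242 did (1.01%). The highest r there was 0.70, but over many more genes, so nothing is drawn from where the highest r lay. Within 1 Mb, 2 of the 14 neighbours reached 0.5 (14.3%), namely Gm16793 and Prag1. For deviations from the group means, 34 chromosome 8 genes (3.23%) and 528 others (2.89%) reached 0.5, and again 2 of the 14 neighbours (14.3%). The difference between these shares was not tested.

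**Figure D5:**
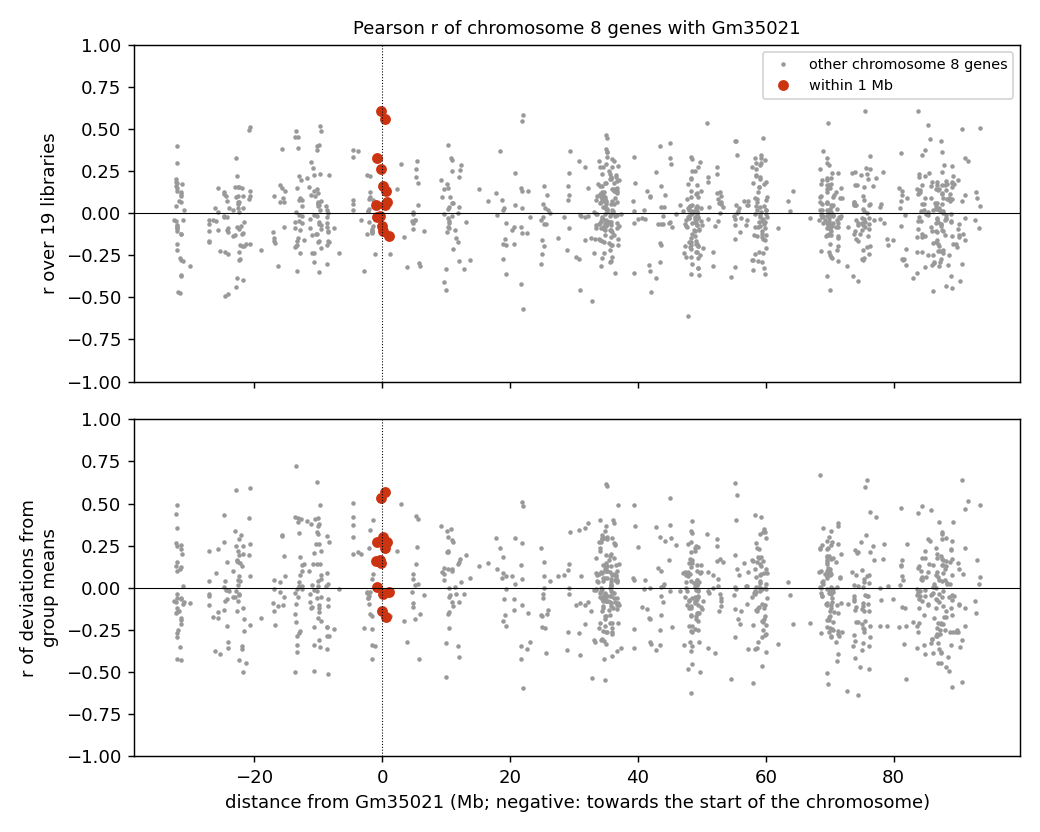
Pearson r with Gm35021 of the other genes of chromosome 8 that passed the filter, over all 19 libraries (top) and of deviations from the group means (bottom), against distance from Gm35021 in Mb. The 14 genes within 1 Mb (red) spread from -0.14 to 0.61 in the top panel, and the values at a distance cover the same range on both sides of 0.

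The 5 chromosome 8 genes with the highest rho over the 19 libraries lay between 15.7 and 83.8 Mb away. They were Tppp3, a tubulin polymerization protein (rho 0.63, r 0.54), Dnaaf1, an assembly factor of ciliary dynein (rho 0.62, r 0.61), the pseudogene Gm40466 (rho 0.57, r 0.38), Abcc12, an ABC transporter (rho 0.56, r 0.53), and 6330537M06Rik, a transcript still to be experimentally classified (rho 0.56, r 0.46). Tppp3 had a lowest, median and highest normalized read count of 725, 845 and 1092 for WT control, 768, 838 and 1326 for APP control and 574, 754 and 778 for APP anti-miR-mix. Its likeness did not hold in each group, with r of 0.92 for WT control, -0.48 for APP control and 0.01 for APP anti-miR-mix. Dnaaf1 was at a mean of 5.13 to 7.99 normalized counts, and pseudogene reads can be shared with near-identical copies, so both Dnaaf1 and Gm40466 are uncertain.

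The 5 with the lowest rho were Mylk3, a myosin light chain kinase of the heart (rho -0.58, r -0.37), D830024N08Rik, annotated as antisense to another gene (rho -0.55, r -0.61), Cd209f, a C-type lectin (rho -0.54, r -0.47), the noncoding BC048644 (rho -0.53, r -0.46) and Gm45644 (rho -0.49, r -0.57). D830024N08Rik had a lowest, median and highest normalized read count of 36.3, 44.2 and 49.3 for WT control, 29.9, 37.7 and 54.6 for APP control and 39.7, 45.1 and 67.2 for APP anti-miR-mix. Its highest value in APP control was in replicate 2, the low library of Gm35021. Its reads cannot be told apart by strand from those of the gene it overlaps. The other 4 had group means under 15 normalized counts.

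Among the 10 chromosome 8 genes with the smallest p in the test of following within groups, 9 are described here, namely Thsd1, Palm3, Znrf1, 6330537M06Rik, Prag1, A230052G05Rik, Gm45887, Cmtr2 and Letm2, all with an adjusted p of 1.00 (DESeq2) and unadjusted p between 0.0019 and 0.013. Apart from Prag1 they lay 10.1 Mb or farther from Gm35021. Thsd1, which encodes a thrombospondin-domain protein of endothelium, had a slope of 0.12 ± 0.04 (SE) and normalized read counts of 178 and 198 in WT control replicates 1 and 2, and between 138 and 153 in replicates 3 to 6. In APP control it spanned 129 to 169, with 132 in replicate 2. Among the 9, the slopes farthest from 0 were those of 3 transcripts still to be experimentally classified. They were Gm45887 (0.36 ± 0.14), A230052G05Rik (0.31 ± 0.12) and 6330537M06Rik (0.27 ± 0.10), with group means between 10.8 and 29.4 normalized counts. With single libraries left out, these slopes ranged from 0.29 to 0.49, from 0.15 to 0.36 and from 0.24 to 0.29, in that order. Palm3, a paralemmin, had -0.19 ± 0.07, and Cmtr2, an mRNA cap methyltransferase, -0.09 ± 0.04. Znrf1, a ubiquitin ligase, and Letm2, a mitochondrial membrane protein, had small slopes of 0.06 ± 0.02 and 0.06 ± 0.03.

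On other chromosomes the 5 genes with the smallest p were Tunar, a neural transcript (slope -0.17 ± 0.04, unadjusted p = 7.4e-05), Gm33320 (0.33 ± 0.09), Mcub, a subunit of the mitochondrial calcium uniporter (-0.26 ± 0.07), Col22a1, a collagen (-0.20 ± 0.06), and Mpp3, a membrane scaffold (0.09 ± 0.02). Each had an adjusted p of 1.00 (DESeq2). Mpp3 had a lowest, median and highest normalized read count of 1006, 1171 and 1294 for WT control, 984, 1178 and 1286 for APP control and 1031, 1141 and 1230 for APP anti-miR-mix, so the groups overlapped throughout.

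Within APP anti-miR-mix, where Gm35021 lay at 1 level, a two-sided exact permutation test over the 5040 orders of the 7 libraries was run for the 1054 chromosome 8 genes, but it could say little. The smallest p that the orders can give is 0.0002, which for a single gene adjusts to 0.21, so a gene could not have passed alone, and the exact Poisson intervals of the 7 counts of Gm35021, which were 10 to 27 per library, overlapped. Of the 1054 genes 56 had an unadjusted p under 0.05, near the share that this threshold gives by itself, and nothing is drawn from the adjusted values.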

How the data were processed

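Poly(A) RNA libraries of the CA1 region were made with the TruSeq RNA kit v2, per the labels, which does not mark strand. The authors deposited raw read counts per Ensembl gene for each library, and the submitters' processing notes name mm10, FastQC (0.11.5), STAR (2.5.2b) and featureCounts of Subread (1.5.1). Whether counting used strand was not given in the sources used here. A second file that the authors deposited holds normalized log2 values for 18825 genes. It differs from log2(CPM + 1) by a whole number per library times a slope per gene and served as an alternative only. Gene names and positions came from GENCODE M21, which matched 48349 of 48709 identifiers.

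Gm35021, the lists and the comparisons were chosen with earlier results of these data known. Genes reaching 5 counts in 50% of the libraries or more were tested in DESeq2 (1.42.0) with 3 groups in 1 fit, by Wald tests with unshrunken fold changes on the log2 scale and Benjamini-Hochberg adjustment over all genes at 0.05, after the study's methods. An adjusted p could be missing at low counts, as it was for Gm9939 and Gm5787 against WT control. The test of following added the centred log2(normalized count + 1) of Gm35021 to the group. Levels use a pseudocount of 1. Named genes were Gm35021, neighbours within 1 Mb (singly where nearest or called), the 10 chromosome 8 genes and 5 others of smallest p for following, the 5 highest and 5 lowest rho on chromosome 8, Thy1 and App, except 1 gene that is not reported here; other genes named are said to be chosen later or are limits of a range. Depth was 19362343 to 37018917 counts per library, and intervals are exact Poisson for counting error only. The fits were tested on simulated data. Alternatives used edgeR (4.0.16), limma (3.58.1) on the authors' log2 values, other filters, scalings, windows, pseudocounts, a replicate block and each library left out. The software was R (4.3.3) and Python (3.11.15) with scipy (1.17.1) and numpy (2.4.6).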

Additional observations from a re-analysis of the deposited data

Results flagged for a closer look

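Among 36 genes named or counted above, Gm35021 left out, each group was examined for 1 library far from the rest on the log2 scale (108 groups in all), and in 10 of them 1 library stood apart. Chance gives about 1 in 20 for genes picked without regard to their values, but most of these genes were picked by their likeness to Gm35021, so the count is not read against that rate. In APP control replicate 2, Gm16793 was at 13.6 normalized counts against 21.4 to 23.4 in the other 5, and Letm2 at 501 against 595 to 640. In WT control replicate 4, A230052G05Rik was at 6.87 against 23.1 to 39.3.

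In APP anti-miR-mix the libraries that stood apart were replicate 2 for Thsd1 (111 against 147 to 158), replicate 3 for Mfhas1 (1635 against 1327 to 1449), replicate 4 for Dlc1 (1707 against 2120 to 2284), replicate 6 for Tunar (267 against 318 to 352), and replicate 7 for Gm33320 (16.6 against 28.3 to 39.0), Tppp3 (574 against 693 to 778) and D830024N08Rik (67.2 against 39.7 to 48.8). No cause was tested for any of them.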

How the results depend on the processing

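The log2 differences of Gm35021 kept their direction under each alternative run. With single libraries left out they ranged from 0.67 to 1.34 (APP control minus WT control), from -2.65 to -2.33 (APP anti-miR-mix minus APP control) and from -1.78 to -1.11 (APP anti-miR-mix minus WT control). The second was -1.37 in limma on the authors' table, whose log2(CPM + 1) scale compresses low counts. The 4 neighbours called against WT control became 2 in each contrast with a window of 0.5 Mb, which holds fewer genes. The 87 chromosome 8 genes called in APP anti-miR-mix against WT control became 55 of 1054 in edgeR. Over all genes edgeR called 1169 of 19296 there, and DESeq2 1726 of 19283, so the number fell across the table. With single libraries left out the 87 became 57 to 92, the 57 without WT control replicate 4, and the cause was not tested. Counts over all genes are not given here for these fits or for the replicate block below. With no filter on low counts 1 gene, Mir200a on chromosome 4, followed Gm35021, and no alternative called a chromosome 8 gene. The 16 chromosome 8 genes with r of 0.5 or beyond became 34 for deviations from the group means and 34 without the 2 libraries farthest from the median. Replicate numbers are shared between groups. The deviations of same-numbered libraries had a median correlation of 0.09 over 18 pairs (range -0.12 to 0.40), with 8 above 0.1. For 5 of 18 libraries the best match had their own number. Whether the number marks a shared step of the experiment was not tested. With the number as a block, 5 neighbours were called in each contrast with WT control and 0 between the APP groups, 64, 0 and 107 chromosome 8 genes in the order of the 3 contrasts above, and 0 genes followed Gm35021. Depth limits the low level of Gm35021, which rests on 9 to 27 counts per library.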
